A study of Mus musculus with 14 samples.

Results

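CT26 tumors that responded to anti-PD-1 were compared with tumors that did not, across all genes, with the cancer-cell and stromal genes in view. The comparison used 9 of the 14 CT26 tumors profiled by bulk RNA-seq, which were 5 responders from 4 mice and 4 non-responders from 3 mice. CT26 is a colon carcinoma line of BALB/c origin, and the tumors grew from 250000 barcoded CT26 cells placed under the skin of each flank of female BALBc mice that were 6 to 8 weeks old. Both groups received anti-PD-1 antibody from day 7, 200 μg at a time, with 5 injections spaced 3 days apart, and the tumors were taken 3 days later. The other 5 tumors, from 4 mice, received control IgG on the same schedule and serve as the background. The study assigned a tumor to the responders or the non-responders by its size at the end of treatment, relative to the control IgG tumors. The responders were therefore the smaller tumors, and effects of tumor size and of response cannot be told apart. Tumors 30L and 30R, and tumors 33L and 33R, carry the same number and so were taken as the left and right tumors of 1 mouse each. The recipients were syngeneic and had their own immune system, and each library mixed RNA from cancer cells, infiltrating leukocytes, vessels, fibroblasts, and any skin or muscle taken with the tumor. In such bulk samples, fewer cells of a type and less RNA per cell cannot be told apart.

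Anti-PD-1 blocks an inhibitory receptor on T cells. T cells released from this brake secrete interferon gamma, which cancer cells and stromal cells answer by making antigen-presentation proteins, guanylate-binding proteins, tryptophan-degrading enzymes, and complement proteins. Cancer cells also run growth programs of their own, among them Ras and MAPK signaling, ribosome biogenesis, and the integrated stress response that adjusts protein synthesis when amino acids run short or proteins misfold. The stroma supplies collagen, basement membrane, matrix-cleaving enzymes, and vessels.

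The libraries held 33237744 to 47233121 expected counts in responders and 34419159 to 44656674 in non-responders. RSEM gives a gene its estimated number of fragments as an expected count, and the values below are CPM, which are these counts scaled to library size with TMM factors. In all 9 tumors a mesenchymal gene was high and genes of epithelial adhesion were low, while a keratin was well expressed. In these mixed libraries such levels cannot be assigned to the cancer cells alone. Vim, an intermediate filament of mesenchymal cells, was at 3964 to 5559 CPM, and Krt20, a keratin of intestinal epithelium, was at 207 to 489 CPM. Epcam, an adhesion molecule of epithelia, was only at 0.554 to 4.67 CPM, and Cdh1, the gene of E-cadherin, at 1.40 to 10.7 CPM. None of these 4 genes was called between the groups (edgeR adjusted p = 0.246 for Vim, 0.539 for Krt20, 0.927 for Epcam, and 0.948 for Cdh1).

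Of 16287 genes tested, 9.9% were called in the quasi-likelihood test of edgeR, at an adjusted p under 0.05, 5.08% as higher in responders and 4.82% as lower. The CPM values of the groups did not overlap in 12.8% of genes, with responders above in 6.8% and below in 6.04%, and 7.96% were both called and apart. The median log2 fold change of all genes tested was 0.01. Single genes are given below by their log2 ratio, which is the fitted log2 fold change, positive where the gene was higher in responders. The calls were not spread evenly over gene length. When the genes were divided by length into 5 classes of equal size, 87 genes of the shortest class were higher and 289 lower, with a median log2 fold change of -0.21. In the longest class, 194 were higher and 39 lower, with a median of 0.17. The mean fragment length was 269.5 to 277.0 bases in responders and 277.5 to 287.8 bases in non-responders, so the ranges were apart, with 2 tumors of 1 mouse in each group. With an offset that removes each library's trend on length, the shortest class held 198 higher and 201 lower genes and the longest 199 and 190. Non-responder 33R had the longest fragments, and without it 506 genes were higher and 287 lower. Responders 24L and 30R and non-responder 32R also carried many calls, which numbered 569, 686, and 615 when each was left out in turn. Counts of lists are therefore given below without the tumors that moved them. On the TPM scale, which divides by effective length, the median of all genes moved to 0.17 and the split to 1969 higher and 191 lower. A gene described below as lower is thus lower relative to the TMM scale, and each gene or list named whose direction turned on another scale is given with that change. Tumors were the replicates of each fit, and with the counts of each mouse summed into 1 library 766 genes were higher and 994 lower.

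**Figure D1:**
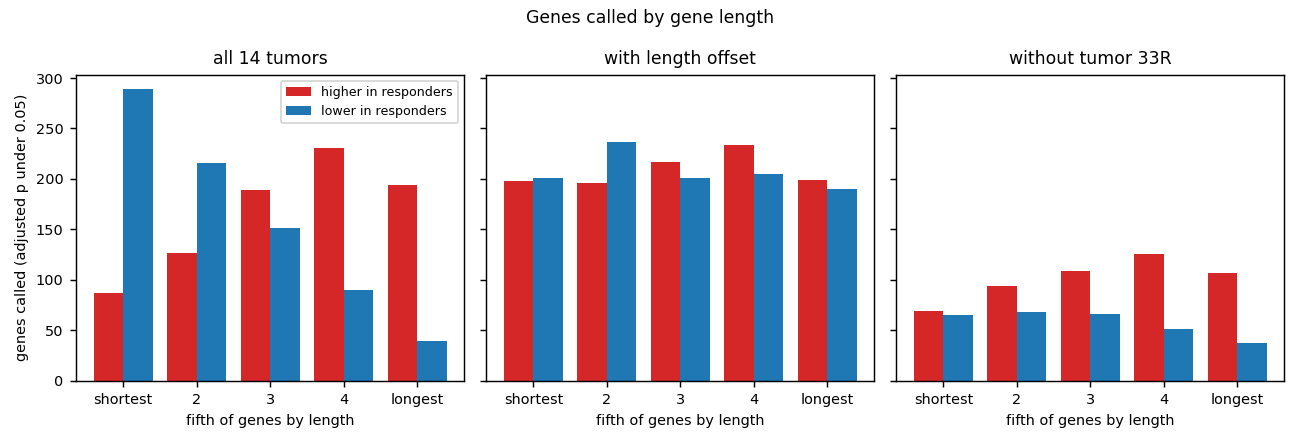
Number of genes called higher (red) and lower (blue) in responders at an edgeR adjusted p under 0.05, in 5 classes of genes from the shortest to the longest, for all 14 tumors (left), with a gene length offset (middle), and without non-responder 33R (right). In all 14 tumors the lower calls drop from 289 to 39 and the higher calls go from 87 to 194 from the shortest to the longest class, and with the offset the shortest class holds 198 and 201 and the longest 199 and 190.

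Among the cancer-cell and stromal lists, complement had the largest share of called genes. Of 23 tested complement components and regulators, 12 were higher in responders and none was lower, against 5.08% of all genes higher, and their median log2 fold change was 0.68 against 0.01 for all genes. In 10 of the 23 genes all responders lay above all non-responders. The summed level of the list was 2792 to 4053 CPM in responders, 1939 to 2188 CPM in non-responders, and 1668 to 2348 CPM in control IgG tumors. The called genes belonged to the classical, lectin, and alternative pathways. C3, the protein that all pathways cleave, was at 432, 278, 349, 263, and 226 CPM in responders 24L, 26R, 30L, 30R, and 35L, and at 108, 63.9, 108, and 56.8 CPM in non-responders 29L, 32R, 33L, and 33R. All 5 responders lay above the 4 non-responders, and control IgG tumors, at 43.9 to 139.6 CPM, covered the range of the non-responders. The log2 fold change of C3 was 1.88 ± 0.31 (SE, edgeR adjusted p = 0.00666).

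C4b, the C4 protein cleaved by the classical and lectin proteases, was at 477, 261, 353, 355, and 241 CPM in the same responders and at 170, 117, 168, and 82.7 CPM in the non-responders, a log2 ratio of 1.33 ± 0.25 (SE, edgeR adjusted p = 0.00962). Cfb, the protease of the alternative pathway's convertase, was at 412, 215, 334, 331, and 213 CPM in responders and at 134, 143, 125, and 150.0 CPM in non-responders, a log2 ratio of 1.12 ± 0.21 (SE, edgeR adjusted p = 0.0102). In both genes responder 24L was the highest and 26R and 35L the lowest, and no responder reached down to a non-responder. The proteases of the C1 complex rose together, with log2 ratios of 1.04 for C1ra (edgeR adjusted p = 0.0114), 1.14 for C1s1 (0.0154), 1.48 for C1rb (0.0166), and 1.21 for C1s2 (0.0224). C1rb at 1.27 to 7.68 CPM and C1s2 at 4.82 to 20.6 CPM are near copies of C1ra and C1s1, and RSEM may have divided fragments between the copies. C6, a part of the lytic pore, was at 12.7 to 18.97 CPM in responders and 4.26 to 10.96 CPM in non-responders (log2 ratio 1.13, edgeR adjusted p = 0.0257). Masp1, a protease of the lectin pathway, was higher by 0.76 (edgeR adjusted p = 0.0102), and C2, the other classical convertase subunit, by 0.96 (0.0423).

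The regulators were less uniform. Clu, a secreted chaperone that binds the lytic pore, was at 104, 80.3, 124, 118, and 109 CPM in responders and at 64.9, 52.0, 48.3, and 59.3 CPM in non-responders (log2 ratio 0.94, edgeR adjusted p = 0.0137). Serping1, the inhibitor of C1 proteases, was higher by 0.68 (edgeR adjusted p = 0.0443) with overlapping groups. Cd55, a membrane brake on complement, had a log2 ratio of -0.72 and was not called (adjusted p = 0.117). The 3 chains of C1q, which tumor macrophages make, were not called, with log2 ratios of 0.14 for C1qa, 0.23 for C1qb, and 0.26 for C1qc. C1qa was at 319 to 383 CPM in responders and 264 to 405 CPM in non-responders, so the groups overlapped. Cfp, the properdin made by leukocytes, stood at 0.43 (adjusted p = 0.0556). C3, C4b, Cfb, C1ra, C1rb, C1s1, Masp1, and Clu stayed called in each of the 11 other fits and without each tumor in turn, while C2 and Serping1 were lost in the fit of the 9 anti-PD-1 tumors alone, with 1 library per mouse, and without 7 and 8 of the 14 tumors. C6 and C1s2 stayed called in the 11 other fits, but C6 was lost without 4 of the 14 tumors and C1s2 without 3.

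**Figure D2:**
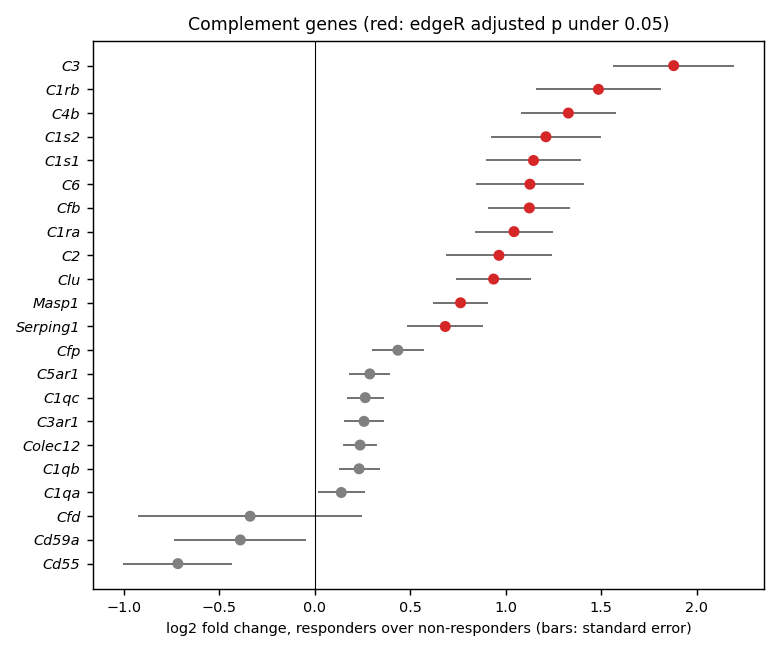
Fitted log2 fold change, positive where higher in responders (dots) with its standard error (bars) for 22 of the 23 tested complement genes, ordered by size, with genes at an edgeR adjusted p under 0.05 in red. The 12 red genes lie between 0.68 for Serping1 and 1.88 for C3, and the 3 C1q genes lie between 0.14 and 0.26.

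Promoter sequences of the called complement genes are shown because these genes rose together. Of the 12 called genes, 6 matched a RefSeq promoter, taken as 250 bases before to 50 bases after the transcript start. The palindrome of the gamma-activated sequence, an interferon response motif, TTCNNNGAA, read the same on both strands, was found in 2 of these 6, C1ra and C1rb. It was in 8.3% of 32851 promoters of this length and in 9.55% of 27025 genes with a promoter. The core of the interferon-stimulated response element, GAAA, any 2 bases, and GAAA, sought on both strands, was in none of the 6 and in 3.99% of all genes with a promoter. The sequences below are 5′ to 3′ on the gene's strand in GRCm38.p6, with the TTCNNNGAA match in capitals.
C3, chr17:57228087-57228386, minus strand: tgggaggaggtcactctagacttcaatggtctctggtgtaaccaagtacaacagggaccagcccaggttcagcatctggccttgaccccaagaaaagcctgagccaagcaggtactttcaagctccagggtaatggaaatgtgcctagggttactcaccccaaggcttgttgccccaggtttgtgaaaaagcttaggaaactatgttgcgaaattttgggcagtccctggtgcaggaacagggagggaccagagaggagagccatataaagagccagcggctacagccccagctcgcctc
C1ra, chr6:124512371-124512670, plus strand: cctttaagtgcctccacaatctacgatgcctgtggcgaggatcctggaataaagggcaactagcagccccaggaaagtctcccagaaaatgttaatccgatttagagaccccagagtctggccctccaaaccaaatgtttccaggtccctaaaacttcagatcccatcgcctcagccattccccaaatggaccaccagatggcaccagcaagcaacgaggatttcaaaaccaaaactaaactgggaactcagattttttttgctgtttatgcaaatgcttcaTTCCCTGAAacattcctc
C1rb, chr6:124570180-124570479, plus strand: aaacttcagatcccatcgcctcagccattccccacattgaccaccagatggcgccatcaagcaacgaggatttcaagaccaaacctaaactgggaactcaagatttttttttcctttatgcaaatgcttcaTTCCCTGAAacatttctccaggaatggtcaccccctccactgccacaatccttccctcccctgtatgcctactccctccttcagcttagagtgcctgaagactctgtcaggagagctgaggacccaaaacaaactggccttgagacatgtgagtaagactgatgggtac
The promoter of C3, the complement gene with the largest fold change, held neither pattern in this window. C1ra and C1rb carried the same 9 letters, starting 32 bases after the start of C1ra and 119 bases before the start of C1rb. These genes are near copies, and the sequence before the match is nearly the same in both. The 2 matches are therefore not independent and are no sign of an excess over all genes. A match is a description of the letters, and binding was not measured in these tumors.

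The 15 genes with the largest increase, after leaving out lymphocyte and chemokine genes, had log2 ratios of 1.72 to 2.41. Ido1, which degrades tryptophan, was at 25.6, 8.69, 18.7, 15.2, and 8.15 CPM in responders 24L, 26R, 30L, 30R, and 35L, and at 4.46, 3.38, 1.47, and 2.38 CPM in the 4 non-responders. Its log2 ratio was 2.38 ± 0.40 (SE, edgeR adjusted p = 0.00679), and control IgG tumors were at 1.47 to 3.63 CPM. Responder 24L was the highest and the non-responders stayed within or just above the range of the controls. Serpina3g, a cytosolic cathepsin inhibitor, was at 93.0 to 272 CPM in responders and 40.8 to 51.6 CPM in non-responders, a log2 ratio of 1.87 (edgeR adjusted p = 0.00679). Its neighbor and near copy Serpina3f changed by 2.06 (edgeR adjusted p = 0.0071). Ubd, a ubiquitin-like protein, changed by 1.99 (edgeR adjusted p = 0.0102), Apol6 by 1.98 (0.0114), and Gbp10, a guanylate-binding protein, by 1.91 (0.0204). Ciita, the master activator of MHC class II, rose by 2.16 (edgeR adjusted p = 0.0102) together with its targets H2-Eb1 by 1.96 (0.0119), H2-Aa by 1.78 (0.0139), and H2-Ab1 by 1.75 (0.0123). H2-Ab1 was at 224 to 482 CPM in responders and 80.5 to 122 CPM in non-responders.

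Others of these genes are known from single cell types. Dnase1l3, a secreted nuclease of dendritic cells and macrophages, had the largest fold change of the 15, with a log2 value of 2.41 ± 0.38 (SE, edgeR adjusted p = 0.00611) and 10.7 to 27.0 CPM in responders against 2.43 to 4.11 CPM in non-responders. Xcr1, the chemokine receptor of cross-presenting dendritic cells, was at 4.52 to 8.33 CPM against 1.67 to 2.06 CPM (log2 ratio 1.72, edgeR adjusted p = 0.00475). Npy4r, a receptor for pancreatic polypeptide, was at 8.49, 7.37, 9.25, 9.30, and 8.001 CPM in responders and at 4.61, 1.18, 2.24, and 0.634 CPM in non-responders, with control IgG tumors at 0.705 to 2.18 CPM. The 5 responders were within a narrow band, unlike in Ido1, while the non-responders spread widely (log2 ratio 1.96, edgeR adjusted p = 0.0203, lost at 0.0597 without non-responder 32R). Calhm6, of the calcium homeostasis modulator family, changed by 1.80 (edgeR adjusted p = 0.0114).

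T cell markers moved with these genes. All 12 tested T cell markers had responders above non-responders without overlap, against 6.8% of all genes, and 10 were called higher, against 5.08%. Without responder 24L 5 of the 12 were called, and without responder 30R or non-responder 32R or 33R 6 were. Their summed level was 68.5 to 126 CPM in responders against 39.6 to 47.1 CPM in non-responders and 30.6 to 64.7 CPM in control IgG tumors. Of 8 tested B and plasma cell markers, 2 were called higher, against 5.08% of all genes, and 1 without 24L, 26R, 32R, 33L, or 33R. Of 25 macrophage genes, 3 were higher and 1 lower, against 5.08% and 4.82% of all genes. The part of these leukocytes in the changes of complement and of the 15 genes above was not tested.

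Among the 15 genes with the largest decrease, 1700048O20Rik, a long noncoding RNA on chromosome 9, was at 0.717, 1.81, 0.898, 0.397, and 0.262 CPM in responders 24L, 26R, 30L, 30R, and 35L, and at 3.84, 12.8, 13.1, and 17.3 CPM in non-responders 29L, 32R, 33L, and 33R. Its log2 ratio was -3.88 ± 0.50 (SE, edgeR adjusted p = 0.00258), control IgG tumors were at 8.10 to 16.4 CPM, and only non-responder 29L fell short of them. Fam71f2 was at 0.211 to 1.203 CPM in responders and 1.99 to 6.34 CPM in non-responders (log2 ratio -2.53, edgeR adjusted p = 0.00666). Csn3, the milk protein kappa-casein, was at 1.53, 1.195, 4.41, 1.59, and 2.40 CPM in responders and at 6.10, 6.35, 10.4, and 10.5 CPM in non-responders (log2 ratio -1.90, edgeR adjusted p = 0.0102). Control IgG tumors had 5.11 to 12.8 CPM of Csn3, a range that covered the non-responders.

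Lipg, the endothelial lipase, was at 1.503 to 3.36 CPM in responders and 5.83 to 9.38 CPM in non-responders (log2 ratio -1.54, edgeR adjusted p = 0.00564), with control IgG tumors at 7.14 to 13.6 CPM. Acsbg1, which activates very long fatty acids, was at 13.1, 21.7, 15.5, 13.8, and 18.2 CPM in responders and at 43.0, 37.6, 47.6, and 41.8 CPM in non-responders (log2 ratio -1.37, edgeR adjusted p = 0.0102). Lyplal1, a lysophospholipase-like protein, changed by -1.495 (edgeR adjusted p = 0.00628). Car6, a secreted carbonic anhydrase, was at 7.12 to 31.0 CPM in responders and 51.9 to 64.0 CPM in non-responders (log2 ratio -1.68, edgeR adjusted p = 0.0193), but control IgG tumors spread from 20.3 to 77.1 CPM and so reached into both groups.

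The remaining genes of this end were Gadd45a, Pak3, Ndufa4l2, and 5 genes of red blood cells. Gadd45a, which stress induces and which slows the cell cycle, was at 13.0, 23.0, 24.9, 12.9, and 16.5 CPM in responders and at 47.9, 43.8, 39.6, and 47.2 CPM in non-responders, a log2 ratio of -1.31 ± 0.25 (SE, edgeR adjusted p = 0.0105). Pak3, a kinase downstream of Rac and Cdc42, changed by -1.47 (edgeR adjusted p = 0.00628). Ndufa4l2, a mitochondrial protein induced under hypoxia, changed by -1.47 (edgeR adjusted p = 0.018), a call that was lost without non-responder 32R or 33R (0.0587 at the most). Of 7 tested genes of red blood cells, 6 were lower, against 4.82% of all genes, and their sum was 66.7 to 292 CPM in responders, 386 to 2082 CPM in non-responders, and 80.7 to 1924 CPM in control IgG tumors. Hbb-bs, a beta-globin, was at 26.7 to 141 CPM in responders and 194 to 1034 CPM in non-responders (log2 ratio -2.80, edgeR adjusted p = 0.0265). Without responder 24L, 30L, or 30R or without non-responder 32R, 0 of the red blood cell genes were called in edgeR, with 6 or 7 at an unadjusted p under 0.05, and without non-responder 33R 1 was called, while DESeq2 and limma-voom with all tumors called the same number as edgeR, 6.

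**Figure D3:**
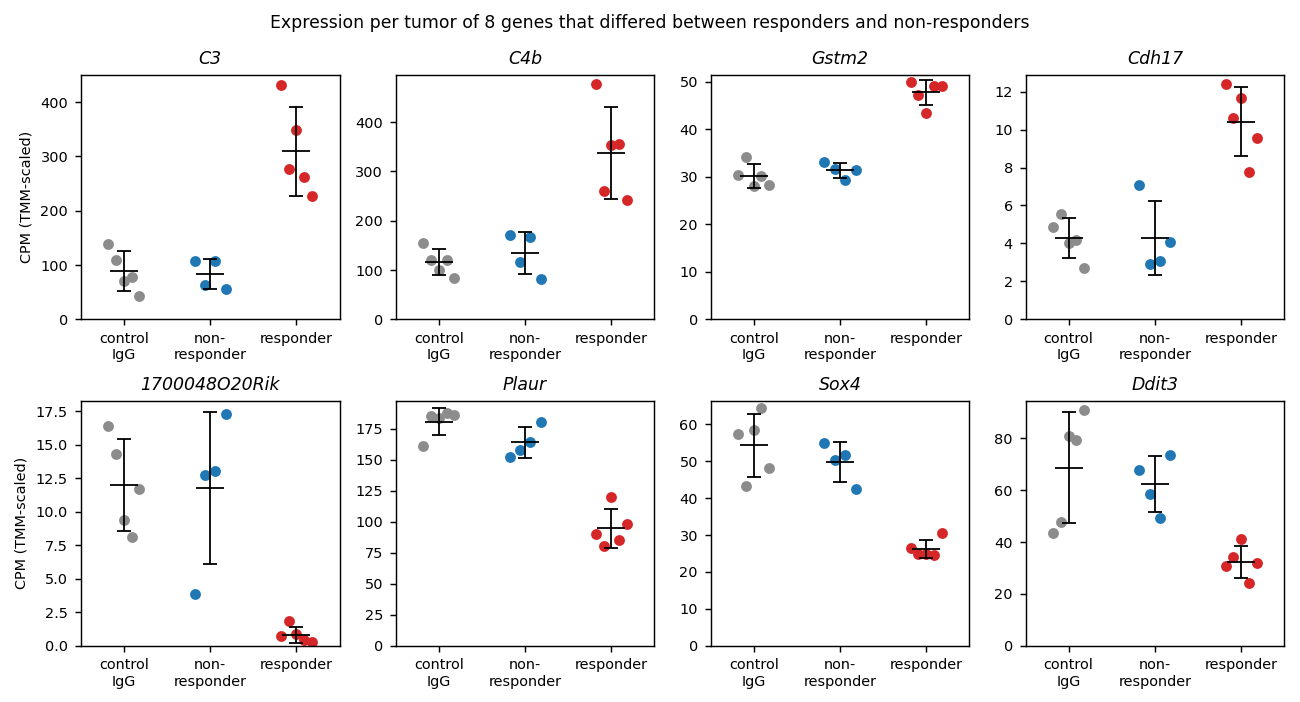
CPM per tumor of C3, C4b, Gstm2, Cdh17, 1700048O20Rik, Plaur, Sox4, and Ddit3 in control IgG tumors (gray), non-responders (blue), and responders (red), with the group mean and SD as bars on linear axes from 0. In each of the 8 genes the 5 responders lie on one side of the 4 non-responders, for example Gstm2 at 43.5 to 49.9 CPM against 29.3 to 33.1 CPM.

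Targets of Ras and MAPK signaling were lower where they differed. Of 20 tested, 5 were lower and none was higher, against 4.82% of all genes lower, and the median log2 fold change was -0.21. On the TPM scale the median turned to 0.07, which was still under the 0.17 of all genes on that scale, and 1 gene was lower. Ereg, an EGF receptor ligand, was at 55.4, 70.1, 82.5, 51.0, and 98.6 CPM in responders and at 136, 106, 131, and 124 CPM in non-responders, while control IgG tumors were at 142 to 174 CPM. Its log2 ratio was -0.80 ± 0.16 (SE, edgeR adjusted p = 0.0123), and it stayed called under each alternative and without each tumor. Fosl1, an AP-1 subunit, was at 68.6 to 89.7 CPM in responders and 105 to 134 CPM in non-responders (log2 ratio -0.57, edgeR adjusted p = 0.00962, and not called on the TPM scale). Hbegf, another EGF receptor ligand, changed by -0.60 (edgeR adjusted p = 0.0437), the ephrin receptor Epha2 by -0.44 (0.0495), and the ETS factor Etv4 by -0.23 (0.0302). Hbegf, Epha2, and Etv4 were each lost in at least 5 of 11 other fits, and the change of Etv4 turned to 0.0028 on the TPM scale. The 5 lower genes became 2 without responder 24L or 30R, non-responder 32R, or control IgG tumor 17R, and 3 without any of 5 other tumors. Dusp6, the phosphatase that limits ERK, had responders below non-responders without overlap but just missed the threshold (log2 ratio -0.23, edgeR adjusted p = 0.0504, and 0.12 on the TPM scale). None of the 12 list members with a matched promoter held the AP-1 letters TGANTCA on either strand, which 8.97% of all genes with a promoter did.

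Plaur of the protease list and Sox4 and Hmga1 of the list of neuronal and developmental genes fell, while some other called members of these lists rose. Plaur, the urokinase receptor, was at 89.7, 80.2, 120, 85.6, and 98.1 CPM in responders 24L, 26R, 30L, 30R, and 35L, and at 152, 158, 164, and 181 CPM in non-responders. Control IgG tumors, at 161 to 188 CPM, overlapped the non-responders, and no responder came near them (log2 ratio -0.79 ± 0.11, SE, edgeR adjusted p = 0.00313). Sox4, a transcription factor of progenitors, was at 26.4, 24.8, 24.8, 24.7, and 30.5 CPM in responders and at 55.0, 50.4, 51.6, and 42.4 CPM in non-responders, with control IgG tumors at 43.2 to 64.4 CPM. The responders lay close together below both other groups, a log2 ratio of -0.93 ± 0.12 (SE, edgeR adjusted p = 0.00246). Hmga1, a chromatin protein of undifferentiated cells, was at 419 to 641 CPM in responders and 651 to 768 CPM in non-responders (log2 ratio -0.51, edgeR adjusted p = 0.0174), and was not called with the length offset or on the TPM scale. Of 16 tested regulators and markers of mesenchymal transition, 4 were lower and 1 higher, against 4.82% and 5.08% of all genes, with a median log2 fold change of 0.03. When responder 24L or 30R was left out 1 was lower, and when non-responder 32R or 33R was left out 2 were. Snai2 changed by -0.64 (edgeR adjusted p = 0.0115), Snai1 by -0.52 (0.0221), Twist2 by -0.43 (0.025), and the hyaluronan receptor Cd44 by -0.27 (0.0475), while the mesenchymal factor Prrx1 changed by 0.43 (0.0407). Snai1, Twist2, Cd44, and Prrx1 were each lost in the fit of the 9 anti-PD-1 tumors alone, and Snai1 also with 1 library per mouse. Snai1, Snai2, Twist2, and Cd44 were lost on the TPM scale, where 0 of the 16 were lower. Cd44 was lost in 6 of 11 other fits and without 12 of the 14 tumors. Prrx1 was also lost with the length offset and without 8 of the 14 tumors.

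The 18 tested genes of epithelial identity had a median log2 fold change of 0.22. Of them, 1 was higher and none lower, against 5.08% and 4.82% of all genes. That gene was Cdh17, a cadherin of intestinal epithelium, at 12.4, 10.6, 11.7, 7.79, and 9.57 CPM in responders and at 7.10, 2.92, 3.06, and 4.05 CPM in non-responders. Non-responder 29L came close to the lowest responder and the other non-responders were at the level of the controls (2.72 to 5.55 CPM), a log2 ratio of 1.28 ± 0.26 (SE, edgeR adjusted p = 0.0137). Krt8, a keratin of simple epithelia, was at 0.875 to 10.9 CPM in responders and 3.11 to 8.24 CPM in non-responders (adjusted p = 0.565). In a list of 19 neuronal and developmental genes, the adhesion molecule Ncam1 rose by 1.30 (edgeR adjusted p = 0.0348), the RNA-binding protein Igf2bp3 by 1.17 (0.0252), and the growth cone protein Gap43 by 0.66 (0.0139), and Sox4 and Hmga1 were the 2 that fell. The shares over all genes were 5.08% higher and 4.82% lower. Ncam1 and Igf2bp3 were at 2.57 CPM or less in each of the 9 tumors, and 1 gene of the list was higher without responder 24L or 30R or without non-responder 32R or 33R.

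Genes of the integrated stress response and of serine synthesis were lower in responders where they were called. Of 20 tested, 5 were lower and none higher, against 4.82% of all genes lower, with a median log2 fold change of -0.28. Ddit3, the stress factor CHOP, was at 30.6, 34.4, 41.0, 24.2, and 32.0 CPM in responders and at 67.8, 58.6, 49.2, and 73.7 CPM in non-responders. The groups were apart, control IgG tumors spread from 43.5 to 91.2 CPM, and the log2 ratio was -0.94 ± 0.21 (SE, edgeR adjusted p = 0.018). Ppp1r15a, which restarts translation after stress, changed by -0.78 (edgeR adjusted p = 0.0387), and Chac1, which degrades glutathione, by -0.63 (0.038). Phgdh, the first enzyme of serine synthesis, was at 413 to 655 CPM in responders and 648 to 990.3 CPM in non-responders (log2 ratio -0.57, edgeR adjusted p = 0.027), and Psph, the last one, changed by -0.52 (0.0401). Atf4, the factor at the head of this response, was at 407 to 551 CPM against 514 to 753 CPM and was not called (log2 ratio -0.36, adjusted p = 0.0719). Ddit3 was the only one of the 5 that stayed called on the TPM scale and without each tumor in turn, and 1 gene of the list was lower without responder 24L or 30R or non-responder 32R, and 2 without non-responder 33R or control IgG tumor 17R.

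The promoter of Chac1 is shown as the called gene of this list with an amino acid response element, the letters TGATGNAA that ATF4 dimers can bind. Either strand of this pattern was found in 7 of the 19 list members with a matched promoter, Trib3, Chac1, Atf3, Asns, Slc7a11, Nupr1, and Vldlr, and in 4.51% of all genes with a promoter. Of the 7, only Chac1 was called. Its sequence is from GRCm38.p6, 5′ to 3′ on the gene's strand, with the match, on the opposite strand, in capitals.
Chac1, chr2:119350992-119351291, plus strand: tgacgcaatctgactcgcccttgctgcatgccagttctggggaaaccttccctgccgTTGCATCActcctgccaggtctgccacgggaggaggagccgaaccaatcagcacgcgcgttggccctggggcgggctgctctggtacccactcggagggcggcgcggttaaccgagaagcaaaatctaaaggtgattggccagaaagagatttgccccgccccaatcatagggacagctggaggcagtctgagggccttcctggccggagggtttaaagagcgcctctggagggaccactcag
The match began 193 bases before the transcript start.

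Of 30 tested Myc targets and nucleolar genes of ribosome biogenesis, 5 were lower and none higher, against 4.82% and 5.08% of all genes. In 8 of the 30 all responders lay below all non-responders, against 6.04% of all genes. The median log2 fold change of the 30 was -0.19, and 0.08 on the TPM scale, where the median of all genes was 0.17 and 1 of the 30 was lower. Rrs1, which brings ribosomal proteins into the large subunit, was at 73.6, 87.7, 84.8, 80.7, and 81.5 CPM in responders and at 116, 126, 127, and 118 CPM in non-responders. Both groups were tight and far apart, with control IgG tumors at 104 to 123 CPM (log2 ratio -0.57 ± 0.07, SE, edgeR adjusted p = 0.00246). The box C/D snoRNP proteins Nop56 and Nop58 changed by -0.40 (edgeR adjusted p = 0.0284) and -0.42 (0.0186), and the processing factors Wdr12 and Wdr43 by -0.42 (0.0303) and -0.32 (0.031). Nop56, Nop58, Wdr12, and Wdr43 were lost in the fit of the 9 anti-PD-1 tumors alone, and Rrs1 was called in each of the 11 other fits. The count of lower genes fell to 2 without responder 24L or 30R or non-responder 32R. Myc itself was at 95.7 to 146 CPM in responders and 113 to 155 CPM in non-responders and was not called (adjusted p = 0.202).

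Proliferation genes as a group did not separate the groups on the TMM scale. Of 39 tested genes of the cell cycle and DNA replication, none was called in edgeR, 6 had an unadjusted p under 0.05, and the median log2 fold change was -0.0022. DESeq2 called 1 of them higher and limma-voom 3. On the TPM scale, where the median of all genes was 0.17, 7 were higher and none lower, with 20 at an unadjusted p under 0.05. Mki67 was at 278, 264, 236, 268, and 256 CPM in responders and at 248, 229, 275, and 95.004 CPM in non-responders, so only non-responder 33R stood apart (adjusted p = 0.424). Of 30 tested genes of hypoxia and glycolysis, 1 was higher and none lower, against 5.08% and 4.82% of all genes. That gene was Pfkfb3, which makes the activator of glycolysis, at 61.6, 25.0, 48.8, 41.7, and 33.7 CPM in responders and at 30.2, 20.3, 20.2, and 14.5 CPM in non-responders (log2 ratio 0.98, edgeR adjusted p = 0.0256, lost in the fit of the 9 tumors alone, with 1 library per mouse, and without 4 of the 14 tumors). Vegfa, a target of HIF1, was at 65.1 to 112 CPM in responders and 103 to 115 CPM in non-responders (adjusted p = 0.261). On the TPM scale 4 of the 30 hypoxia and glycolysis genes were higher and none lower.

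Of 24 tested genes of cholesterol synthesis and uptake, 4 were called higher and none lower, against 5.08% of all genes higher, and 23 had a positive log2 ratio, with a median of 0.29. Fdps, which makes farnesyl diphosphate, was at 121, 158, 152, 171, and 156 CPM in responders and at 110, 126, 106, and 97.3 CPM in non-responders (log2 ratio 0.46, edgeR adjusted p = 0.0318). Responder 24L was the lowest of its group and below non-responder 32R. Nsdhl changed by 0.43 (edgeR adjusted p = 0.0291), Stard4, a carrier of cholesterol, by 0.45 (0.0368), and Ebp by 0.29 (0.0416). Sqle, an early enzyme of the sterol branch, had a log2 ratio of 0.40 and was not called (adjusted p = 0.0528). Each of the 4 calls was lost in the count of 1 library per mouse or with the length offset, and without responder 26R, 30R, or 35L or non-responder 33R 0 of the 24 were called in edgeR, with 6 to 8 at an unadjusted p under 0.05. With all tumors, DESeq2 called 6 and limma-voom 8. The sterol element letters TCACNCCAC were found in 1 of the 16 list members with a matched promoter, Hmgcs1, and in 1.44% of all genes with a promoter, on either strand.

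Single genes differed in other programs. Gstm2, a glutathione transferase, was at 49.9, 47.1, 43.5, 49.1, and 49.1 CPM in responders and at 33.1, 31.5, 29.3, and 31.5 CPM in non-responders. Its log2 ratio of 0.61 had the small SE of 0.07 (edgeR adjusted p = 0.00246), and control IgG tumors were at 28.0 to 34.2 CPM. G6pdx, which supplies NADPH, was the other called gene of 21 glutathione and Nrf2 genes (log2 ratio 0.43, edgeR adjusted p = 0.0436), a call lost in the fit of the 9 tumors, with 1 library per mouse, and without 10 of the 14 tumors. The 2 called of 21 compare with 9.9% of all genes. Of 20 genes listed for the glucocorticoid receptor and its targets, 3 were higher and none lower, against 5.08% of all genes higher. Without responder 24L or 30L or non-responder 32R 1 was higher, and without non-responder 29L 7 were. With all tumors, DESeq2 called 5 higher, limma-voom 6, and either TPM scale 7. The 3 called in edgeR with all tumors were Slurp1, a secreted peptide of epithelia (0.93, edgeR adjusted p = 0.032), and the paired membrane proteins Tmem176a (0.52, 0.0137) and Tmem176b (0.41, 0.0348), which dendritic cells also express. Tmem176a was at 169 to 224 CPM in responders and 130.2 to 149 CPM in non-responders without overlap. Slurp1 was lost in the fit of the 9 tumors and without 4 of the 14 tumors, and Tmem176b without 6. Fkbp5, the standard readout of the receptor, was at 454 to 530.2 CPM in responders and at 578, 389, 371, and 234 CPM in non-responders, and was not called (adjusted p = 0.388). Of 20 p53 targets, Fas rose by 0.75 (edgeR adjusted p = 0.0333) and Sesn1 by 0.44 (0.0192), and Plk2 fell by 0.66 (0.018) and Mdm2, the ligase of p53, by 0.41 (0.014), so that 2 were higher and 2 lower, against 5.08% and 4.82% of all genes. None was higher without responder 24L or 30R or non-responder 32R, with 9 or 10 at an unadjusted p under 0.05, while DESeq2 with all tumors called 6 higher and limma-voom 4. Fas was lost without 5 of the 14 tumors, Sesn1 and Mdm2 in the fit of the 9 tumors, and Mdm2 and Plk2 on the TPM scale. Of 18 tested Wnt targets, 1 was called, against 9.9% of all genes. It was Tcf7, which T cells also express (0.97, edgeR adjusted p = 0.00666). Axin2, the general readout of the pathway, was at 0.443 to 1.23 CPM in the 9 tumors (adjusted p = 0.29).

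Stromal structure differed in few genes with all 14 tumors in the fit, and non-responder 33L moved the counts. Of 25 tested markers of cancer-associated fibroblasts, only C3 was called, against 9.9% of all genes. The summed level of the list was 3209 to 3700 CPM in responders and 3126 to 3902 CPM in non-responders. Without non-responder 33L, 5 of the 25 were called higher, with 10 at an unadjusted p under 0.05. Of 28 fibrillar collagens and assembly enzymes, 23 had a positive log2 ratio and 2 were called higher, against 5.08% of all genes. Their summed level was 5127 to 7361 CPM in responders and 4281 to 6694 CPM in non-responders, with 33L the highest non-responder. Without non-responder 33L, 6 of the 28 were called higher, with 17 at an unadjusted p under 0.05. In the fit of the 9 anti-PD-1 tumors, or without responder 24L, 30L, 30R, or 35L or non-responder 33R, 0 were called higher. Col1a2, a chain of collagen I, was at 2062, 1472, 1695, 1679, and 1652 CPM in responders and at 1185, 1267, 1607, and 886 CPM in non-responders (log2 ratio 0.47, edgeR adjusted p = 0.0475). Non-responder 33L lay within the responders, and 11 of the 14 fits that left out 1 tumor lost the call. Col1a1, the partner chain, was at 404 to 1020 CPM in responders and at 253, 260.1, 688, and 289 CPM in non-responders and was not called (0.69, adjusted p = 0.187). The collagen-modifying enzyme Plod1 changed by 0.30 (edgeR adjusted p = 0.0416, lost with 1 library per mouse and without 10 of the 14 tumors), and Postn, a matricellular protein of activated fibroblasts, had 0.54 and was not called (0.249). None of 20 tested basement membrane genes was called in edgeR, 4 had an unadjusted p under 0.05, and the median log2 fold change was 0.25. DESeq2 called 1 of them lower, and limma-voom 2 higher and 1 lower. Without non-responder 33L edgeR called 1 of the 20 higher, with 9 at an unadjusted p under 0.05.

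Of 29 matrix proteases and inhibitors, Plaur and Mmp11 were lower and Mmp19 higher, against 4.82% and 5.08% of all genes. Mmp11, a stromelysin, was at 9.27, 9.97, 10.8, 9.59, and 10.8 CPM in responders and at 12.4, 15.5, 17.3, and 14.3 CPM in non-responders (log2 ratio -0.56, edgeR adjusted p = 0.0254). The responders were tighter and all below, and the call was lost on the TPM scale. Mmp19 changed by 0.79 (edgeR adjusted p = 0.03), lost in the fit of the 9 tumors, with 1 library per mouse, and without 5 of the 14 tumors. Of 27 genes of the TGF-beta pathway, 4 were higher and 2 lower, against 5.08% and 4.82% of all genes. Without responder 24L or non-responder 32R 0 were called in edgeR, with 8 at an unadjusted p under 0.05, while DESeq2 and limma-voom with all tumors each called 6 higher and 2 lower. The higher ones were the latent TGF-beta binding protein Ltbp2 (0.88, edgeR adjusted p = 0.0406), the endothelial receptors Eng (0.48, 0.0308) and Acvrl1 (0.41, 0.018), and the ligand Tgfb3 (0.34, 0.0393). The lower ones were the feedback inhibitors Smad7 (-0.53, edgeR adjusted p = 0.025) and Skil (-0.45, 0.038). Tgfb3 was lost in 4 of 11 other fits, among them 1 library per mouse, and without 8 of the 14 tumors. Ltbp2 was lost in 3 of these fits and without 9 tumors, and Skil in 4 and without 8. Smad7 was lost in 2 and without 5 tumors, and Eng in 1 and without 4. Acvrl1 stayed called in the 11 other fits and was lost without 2 tumors. The median of the list was -0.07, and 12 of the 27 had a positive log2 ratio.

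Of 30 tested genes of blood endothelium, 25 had a positive log2 ratio, 2 were higher (Eng and the endothelial surface protein Ecscr at 0.40, edgeR adjusted p = 0.0309), and 2 were lower, against 5.08% and 4.82% of all genes, with a median of 0.16. None was higher and 1 was lower without responder 24L or 30R or non-responder 32R, Eng was lost in the fit of the 9 tumors, and Ecscr was lost without 5 of the 14 tumors. The lower ones are known from sprouting tip cells, but which cells made their RNA here was not tested. Esm1, also called endocan, was at 242, 208, 389, 201, and 254 CPM in responders and at 493, 421, 465, and 395 CPM in non-responders, while control IgG tumors were at 411 to 553 CPM. Responder 30L alone came close to the non-responders, and the log2 ratio was -0.78 ± 0.16 (SE, edgeR adjusted p = 0.0139). Apln, a ligand of sprouting endothelium, was at 44.9 to 54.6 CPM in responders and 54.7 to 69.9 CPM in non-responders (-0.35, edgeR adjusted p = 0.0232), a call lost on the TPM scale and in the fit of the 9 tumors. The pan-endothelial genes Pecam1 (0.27, adjusted p = 0.125) and Cdh5 (0.26, 0.402) were not called. Of 15 tested genes of pericytes and smooth muscle, only Kcnj8, a potassium channel of pericytes, was called, at 3.91 to 5.34 CPM in responders and 6.28 to 8.92 CPM in non-responders (-0.73, edgeR adjusted p = 0.0201, and not called on the TPM scale). The share called over all genes was 9.9%. Acta2 was at 20.1 to 38.2 CPM and 18.1 to 34.0 CPM (adjusted p = 0.489), and none of 8 lymphatic genes was called in edgeR or DESeq2, with 2 at an unadjusted p under 0.05 and 1 called higher by limma-voom.

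Macrophage genes differed in a few members. Adgre1, the F4/80 antigen, was at 155, 132, 142, 178, and 153 CPM in responders and at 131, 99.3, 101, and 95.5 CPM in non-responders, so that 29L almost met the lowest responder (log2 ratio 0.51, edgeR adjusted p = 0.0132). The monocyte marker Ly6c2 changed by 1.43 (edgeR adjusted p = 0.0302) and Nos2, the inducible nitric oxide synthase, by 1.06 (0.0406). Ly6c2 was lost without 6 of the 14 tumors, and Nos2 without 8, in the fit of the 9 tumors, and with the epidermis covariate. Trem2, a receptor of lipid-laden macrophages, changed by -0.50 (edgeR adjusted p = 0.041) and was lost in 4 of 11 other fits. The 3 higher and 1 lower genes of the list, against 5.08% and 4.82% of all genes, became 1 and 0 without responder 24L or 30L or non-responder 32R. Arg1 was at 65.9 to 135 CPM in responders and 109 to 190 CPM in non-responders (-0.52, adjusted p = 0.198), Mrc1 had 0.46 (0.209), and Cd68 had 0.22 (0.159). None of these 3 was called.

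**Figure D4:**
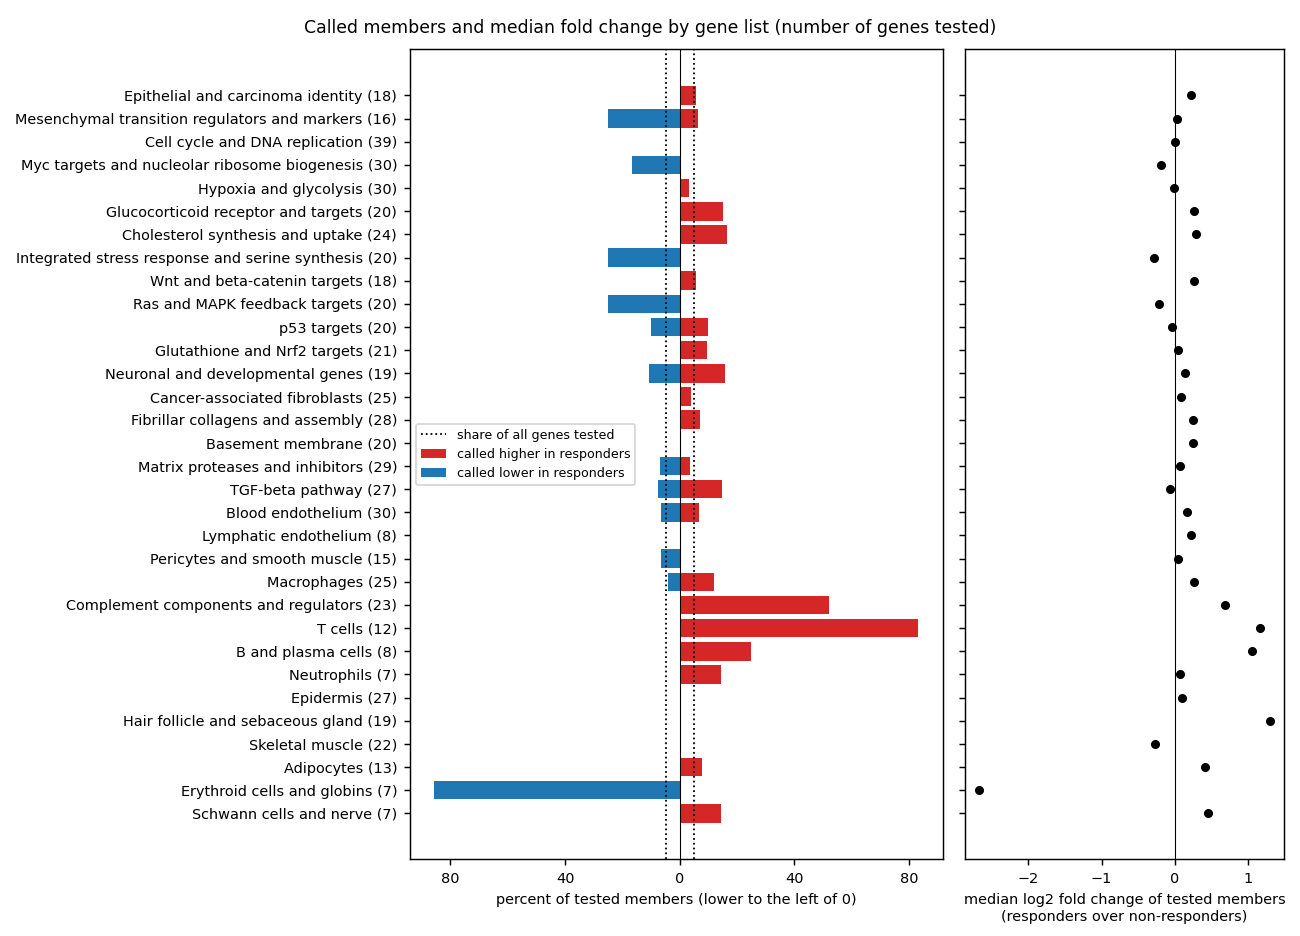
Share of tested members called higher (red, right of 0) and lower (blue, left of 0) in responders at an edgeR adjusted p under 0.05 for 32 gene lists, with the shares over all genes as dotted lines (left), and the median log2 fold change of the tested members (right). Complement and T cells show the largest shares on the higher side and erythroid genes on the lower side, and the medians of the Ras and MAPK list and of the Myc list, -0.21 and -0.19 here, turn to 0.07 and 0.08 on the TPM scale.

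None of 27 tested epidermis genes, 19 hair follicle and sebaceous gland genes, or 22 skeletal muscle genes was called in edgeR. At an unadjusted p under 0.05 there were 0, 2, and 0 of them, and DESeq2 and limma-voom each called 1 gene, of the hair follicle list. Their sums were 210.2 to 2070 CPM in responders against 544 to 865 CPM in non-responders for epidermis, 537 to 661 against 342 to 496 CPM for hair follicle and sebaceous gland, and 149 to 824 against 264 to 1357 CPM for muscle. For the hair follicle and sebaceous gland list the sums were apart. In this list 18 of 19 log2 ratios were positive, and the median log2 fold change was 1.30. The mean log2 CPM of its genes overlapped, however. Among responders it spanned -2.59 (30L) up to 1.49 (30R), and among non-responders -2.35 (32R) up to 0.78 (33L). Responder 30L had the highest sum of either group but the lowest mean log2 CPM. The sums therefore do not show more of this tissue in responders, and the part of this list in the other results was not tested. Of 13 adipocyte genes, Lipe, a lipase of fat cells, was called (0.41, edgeR adjusted p = 0.0393, lost with 1 library per mouse and without 8 of the 14 tumors), of 7 neutrophil genes Csf3r (0.85, 0.0139), and of 7 genes of Schwann cells and nerve Mbp, a myelin protein (0.70, 0.00962). The share called over all genes was 9.9%. With the mean log2 CPM of the epidermis genes as a covariate, 12 complement genes stayed called as higher and 6 Ras and MAPK targets were lower.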

How the data were processed

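Bulk tumor RNA-seq was available for 14 CT26 tumors, grouped by the response named in their labels. Per the submitters' notes, STAR and RSEM were run by the authors on mm10, and their methods state default settings for the cell lines and refer back for the tumors' sequencing alone, so the settings used on tumor reads are not given in the sources used here. The authors deposited expected counts, which are RSEM estimates of fragments per gene without normalization, for 53801 genes. The TPM values that the authors deposited divide these by effective length and scale to a fixed total, and the FPKM values that the authors deposited were not used. Gene length minus effective length gave the mean fragment length.

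Expected counts were rounded and fitted over all 14 tumors in R 4.3.3 with edgeR 4.0.16 (TMM, filterByExpr, quasi-likelihood test, Benjamini-Hochberg over 16287 genes), without covariates. A gene was called at an adjusted p under 0.05. No 2 tumors agreed within sampling noise, with a chi-square per gene of at least 21.2. Whether sequencing depth limited any of the named genes was not tested. DESeq2 1.42.0, limma 3.58.1 (voom with mouse as a random effect, and trend on log2 TPM with a pseudocount of 1 or 0.1), other filters and scalings, a lowess offset for gene length (span 0.5), 1 library per mouse, the 9 anti-PD-1 tumors alone, an epidermis covariate, and the omission of each tumor were alternatives. The edgeR, DESeq2, and limma-voom fits and the length offset were tested on simulated counts without an effect of mouse. In that simulation 3.33% of calls were false with edgeR, 14.5% with DESeq2, and 3.85% with limma-voom. Larger counts from DESeq2 are to be read with that share in view. The simulated counts behind these shares had 200 changed genes and no trend on gene length, so the shares need not hold for these libraries. The genes named are members of 32 marker and pathway lists and, in each direction, the 15 genes with the largest change among those called, without overlap, at a mean log2 CPM of at least 1, and outside lymphocyte, antigen receptor, and chemokine genes. The lists and members were chosen with earlier results of these data known. Coordinates are of mm10, and promoters and their sequences are RefSeq's for GRCm38.p6. A few genes are not reported here. The study's barcode, ATAC-seq, cell line, and clinical data were not used here.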

Additional observations from a re-analysis of the deposited data

Results flagged for a closer look

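In 150 genes named or listed here, the CPM of the 5 responders and of the 4 non-responders were searched for a tumor far from the rest of its group, by the gap to the nearest other tumor as a share of the group's range. Of 300 groups, 13 held such a tumor, and chance alone flags about 1 group in 20.

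Non-responder 33R stood apart in 5 genes. It was above the other non-responders in the snoRNA host genes Snhg1 (gap 0.866 of the range) and Zfas1 (0.879) and in the monocyte gene Ly6c2 (0.85), and below them in the mesenchymal factor Prrx1 (0.833) and the cholesterol carrier Stard4 (0.851). Its library also had the longest mean fragments, 287.8 bases. Without it the log2 fold change of Snhg1 was -0.87 and that of Zfas1 -0.87, both still called in edgeR. Whether fragment length had a part in these levels was not tested.

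Non-responder 33L, from the other flank of the same mouse, was above its group in Col1a1 (0.917), the latent TGF-beta binding protein Ltbp2 (0.838), and Nos2 (0.833). Non-responder 29L was above its group in Adgre1, the F4/80 antigen (0.845). Responder 24L was above the other responders in the T cell genes Cd4 (0.712) and Lck (0.769) and below them in the cholesterol enzyme Sqle (0.737), and responder 30L was above them in the endothelial gene Esm1 (0.719).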

How the results depend on the processing

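No paired analysis was possible because no mouse held tumors of both groups. The 1612 genes called (827 higher, 785 lower) became 2559 (1255, 1304) with DESeq2, 2973 (1483, 1490) with limma-voom and a random effect for mouse, where the estimated correlation within a mouse was -0.28, 689 (487, 202) in the fit of the 9 anti-PD-1 tumors alone, 2483 (1122, 1361) with the epidermis covariate, and 352 (244, 108) with an absolute log2 fold change over 1. A negative correlation treats tumors of 1 mouse as less alike than tumors of different mice. The limma-voom fit therefore made no allowance for likeness within a mouse. With 1 library per mouse 1760 genes were called (766 higher, 994 lower). Without the low count filter 417 were lower. On the TPM scale 1969 were higher and 191 lower with a pseudocount of 1, and 1897 and 207 with 0.1. DESeq2 shared 99.9% of the main calls, and the fit of the 9 tumors 41.3%. Leaving out 1 tumor gave 569 (without responder 24L) to 1978 (without non-responder 29L) genes, 341 to 923 higher and 228 to 1055 lower, with 615 without non-responder 32R, 686 without responder 30R, and 793 without non-responder 33R.

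Of the Myc and nucleolar genes, 5 were lower, against 9 with limma-voom, 1 in the fit of the 9 tumors, 2 without the filter, 1 on either TPM scale, 10 with the epidermis covariate, and 2 to 7 without 1 tumor. Of the stress response and serine genes, 5 were lower, against 8 with DESeq2, 2 in the fit of the 9 tumors, 1 on either TPM scale, and 1 to 6 without 1 tumor. Of the Ras and MAPK targets, 5 were lower, against 8 with DESeq2, 2 in the fit of the 9 tumors, 2 without the filter, 1 on either TPM scale, and 2 to 5 without 1 tumor. Of the cholesterol genes, 4 were higher, against 8 with limma-voom, 1 in the fit of the 9 tumors, 2 with 1 library per mouse, 9 on either TPM scale, and 0 (without responder 26R, 30R, or 35L or non-responder 33R) to 4 without 1 tumor. Of the complement genes, 12 were higher, against 19 on either TPM scale and 8 to 14 without 1 tumor. Of the red blood cell genes, 6 were lower, against 3 on either TPM scale and 0 (without responder 24L, 30L, or 30R or non-responder 32R) to 6 without 1 tumor. The cause of these shifts was not tested.

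Of 123 called genes named or listed, 73 stayed called in all 11 other fits, and 54 also without each tumor. In the fit of the 9 tumors 39 were lost, with the length offset 5, and without non-responder 32R 58. The direction of Etv4 turned on the TPM scale (0.0028 with a pseudocount of 1, 0.0031 with 0.1). Genes that were not called turned too. Dusp6 had 0.12 on either TPM scale. Epcam had -0.0703 with limma-voom, -0.0819 with 1 library per mouse, and -0.24 to 0.34 without 1 tumor. Cdh1 had -0.0355 with limma-voom, -0.0728 with 1 library per mouse, -0.0482 with the length offset, and -0.44 to 0.30 without 1 tumor.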

Other observations

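Of 13 tested host genes of small nucleolar RNAs, chosen after their values were seen, 6 were called lower in responders and none higher in edgeR, against 4.82% of all genes lower and 289 of 3258 in the shortest length class. All 13 had a negative log2 fold change, and the median was -0.52. These spliced RNAs are known for decaying during translation, and their introns carry the guides that modify ribosomal RNA. Gas5 was at 41.7, 38.1, 41.9, 32.4, and 40.5 CPM in responders 24L, 26R, 30L, 30R, and 35L, and at 61.0, 54.2, 66.1, and 79.2 CPM in non-responders 29L, 32R, 33L, and 33R. The groups did not overlap (log2 fold change -0.74, edgeR adjusted p = 0.00556). Snhg1 was at 25.5 to 39.8 CPM in responders and 58.1 to 112 CPM in non-responders (-1.15, edgeR adjusted p = 0.00524), Zfas1 at 54.4 to 95.3 and 122 to 226 CPM (-1.13, 0.00564), and Snhg8 at 24.1 to 34.7 and 40.8 to 59.3 CPM (-0.82, 0.00475). These genes are short, at 437 to 1486 bases, and the calls went to 5 with the gene length offset (median -0.36), 5 without non-responder 33R (-0.32), and 5 on the TPM scale (-0.22).

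Of receptors chosen after their values were seen, Tnfrsf12a, the TWEAK receptor, had a log2 ratio of -0.94 (edgeR adjusted p = 0.00793), and Il1rap, the shared chain of interleukin 1 family receptors, of -1.06 (edgeR adjusted p = 0.00246). Both stayed called in each of the 11 other fits and without each tumor.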
